A study of Mus musculus with 7 samples.

Results

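The sarcomere is the contractile unit of the cardiomyocyte, and 39 genes were followed here, those of its filaments, Z-disc and M-band and 2 regulators of its assembly or transcription. The genes were chosen by name from what their proteins do, with earlier results of these data known. All 39 were found among the 14641 genes of the count table. RNA had been sequenced from hearts of male C57BL/6J mice, with 4 libraries from non-transgenic mice (NTG, numbered 1 to 4) and 3 from mNrf2-TG mice (numbered 17 to 19). The transgene of mNrf2-TG mice is full-length mouse Nrf2, driven by the αMHC promoter, which is active in cardiomyocytes and normally drives Myh6, a member of the list. NTG mice carry no transgene, and the labels name no treatment of either group. The labels call the tissue whole heart lysate, from about 15 mg of frozen heart per extraction, and the region of the heart is not given in the sources used here. The mNrf2-TG labels give an age of 6 months, the design text 7 to 8 months and the methods 6 to 7 months. As the libraries of the groups also carry separate runs of numbers, any step that went with those numbers and the genotype cannot be told apart.

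In a sarcomere, myosin heads of the thick filament pull on actin of the thin filament. Calcium allows this by binding troponin C, after which the troponin complex moves tropomyosin along the actin. Titin spans from the Z-disc, where thin filaments of neighbouring sarcomeres are cross-linked, to the M-band, where thick filaments are tied together. Several of these proteins have an adult or ventricular form and a fetal, slow or atrial form made from another gene, and the mouse ventricle uses mainly the adult forms. Myocd, the gene of myocardin, is a coactivator of serum response factor, and Smyd1 is a muscle methyltransferase needed for myofibril assembly.

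The libraries held 6534684 to 8405857 counts on the listed genes. Nfe2l2, the gene of Nrf2, was counted 729 to 1392 times per NTG library and 10912 to 12839 times per mNrf2-TG library, the transgene included, so the labels of both groups held. The 39 members took 12.0%, 12.4%, 13.3% and 12.6% of the counts in NTG 1 to 4, and 11.2%, 11.2% and 11.0% in mNrf2-TG 17 to 19. Of the members, 37 had a count in every library. Normalized counts below are counts scaled by edgeR's TMM factors to the mean library size. Log2 fold changes are mNrf2-TG against NTG from edgeR's quasi-likelihood test, with p-values adjusted by the Benjamini-Hochberg method over the 14637 genes tested, and a gene is called at an adjusted p under 0.05. The labels do not say that each library came from a separate mouse, so the p-values measure the spread between these libraries.

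Of the 39 genes, 12 (30.8%) fell in mNrf2-TG hearts and 0 rose. Over all genes tested, 8.73% were called lower and 8.48% higher. The called members were Myl2 and Myl3 of the thick filament, Tpm1, Tpm3, Tnnt1 and Tnni3 of the thin filament, Myom2 of the M-band, Ldb3, Myoz2 and Myot of the Z-disc, and both regulators, Myocd and Smyd1. The median log2 fold change was -0.18 over the 39 members and 0.0012 over all genes tested, with 29 members below 0 and 10 above. For 13 members the ranges of both groups were separate, all lower in mNrf2-TG, where 14.7% of all genes did so below and 15.0% above. With 0 members called higher by edgeR, 3 were higher at an unadjusted p under 0.05, limma-voom and the library total alone each called 1, Flnc, and DESeq2's Wald test 0.

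The NTG group was not uniform for these genes. NTG 3 was the highest of the 4 NTG libraries for 24 members, the lowest for 12 and in between for 3. The same positions were not counted over all genes, so these numbers are not shown to be particular to the list. Its normalized count of Xirp1 was 3.98 times the mean of the other NTG libraries, that of Flnc 2.33 times, of Lmod2 2.28 times and of Synpo2l 2.09 times, while Actc1 stood at 0.576 times and Myocd at 0.666 times. Without NTG 3, edgeR called 14 members lower and 5 higher, where 10.1% of all genes were called lower and 10.1% higher. The median log2 fold change over the 39 members was then -0.079, with 26 members below 0 and 13 above. The 12 genes above were all among those 14, with Tnnt2 (log2 fold change -0.22) and Cryab (-0.33) added. The 5 called higher were Myl4, Mybpc3, Flnc, Xirp1 and Synpo2l. Values below, isoform ratios included, are from all libraries unless stated, and for some of the genes results without NTG 3 are added.

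**Figure D1:**
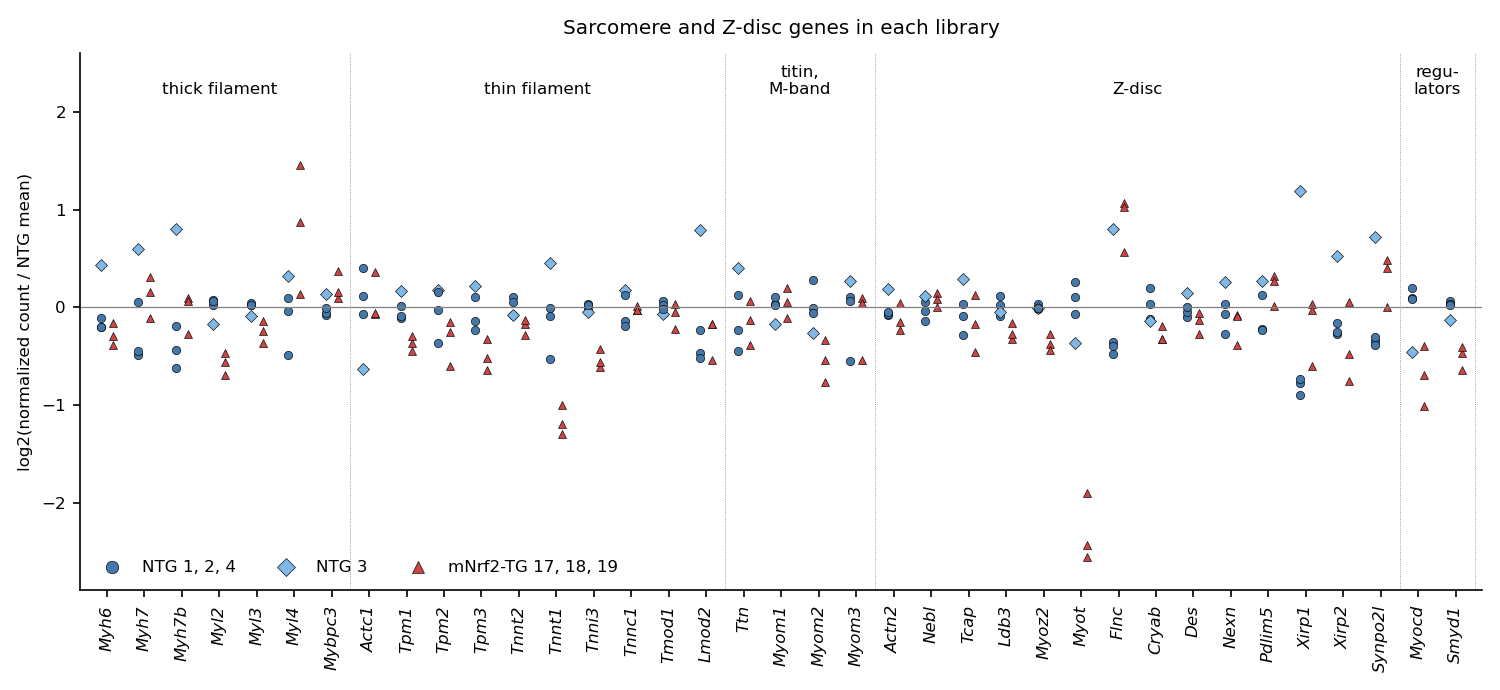
Normalized counts of 37 sarcomere and Z-disc genes in each library, as log2 of the ratio to the NTG mean (y axis), grouped by filament (x axis). Each point is 1 library; Myl7 and Tnni1, with at most 4 counts in any library, are left out. All 3 mNrf2-TG libraries (triangles) lie below the 4 NTG libraries for Myot, Tnnt1, Tnni3 and Myl2, and NTG 3 (diamonds) lies above the other NTG libraries for Flnc, Xirp1 and Synpo2l.

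Counts per kb of exon allow a rough comparison of levels of different genes. The exon length merges all annotated transcripts of a gene, such as 7752 bases for Tnnt2 and 1041 for Tnnc1. Where the expressed RNA is shorter than that, its level is understated. The cardiac actin gene Actc1 had the highest NTG level, 60080 normalized counts per kb, followed by Myl2 with 48510, Myh6 with 26870, Myl3 with 22700 and Tnni3 with 21460. The structural genes Myoz2, with 2770 per kb, and Ldb3, with 2010, lay in the middle of the order, and Myot, with 277.6, among its lower ranks. At the bottom were Myl4 with 4.64 per kb, Myom3 with 2.84, Myl7 with 2.24 and Tnni1 with 0.413, atrial, fetal or slow forms that were nearly absent from these hearts. In mNrf2-TG the level of Actc1 was 63970 per kb and that of Myl2 32600, and Tnni3 stood at 14860 per kb, below Tnnc1 with 18500. Actc1 and Tnnc1 were not called between the groups (adjusted p = 0.801 and 0.928 in edgeR's test).

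**Figure D2:**
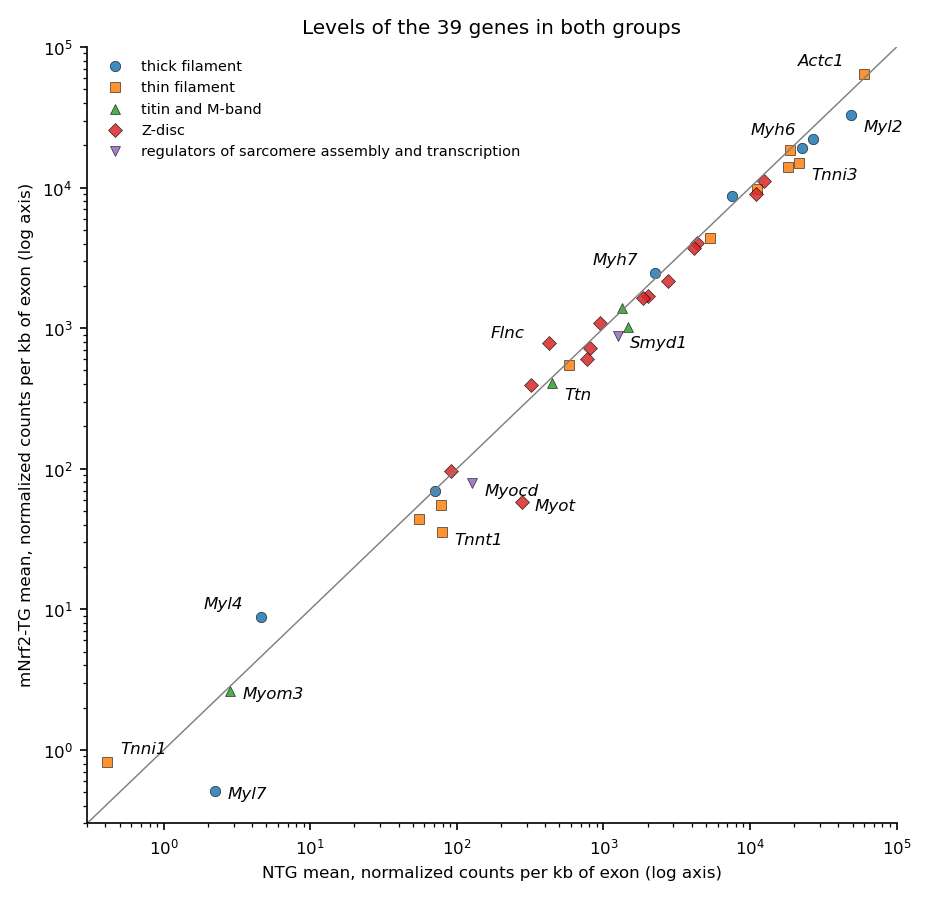
Mean level of each of the 39 genes in NTG (x axis) and mNrf2-TG (y axis), in normalized counts per kb of exon on log axes; the line marks equal levels. Actc1 lies at the top right and Tnni1 at the bottom left, and Myot and Tnnt1 lie furthest below the line among genes with more than 10 per kb.

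In the thick filament, the ventricular light chain genes fell and the heavy chain genes were not called. Of its 8 genes 2 (25.0%) fell and 0 rose, where 8.73% of all genes fell and 8.48% rose. The median log2 fold change was -0.14, and 0.12 without NTG 3. Myl2, the ventricular regulatory light chain (chromosome 5, 122100951 to 122113472, GENCODE M21 on GRCm38), had 95850, 99630, 84110 and 98810 normalized counts in NTG 1 to 4 and 58440, 64180 and 68120 in mNrf2-TG 17 to 19. The groups did not overlap, and the NTG mean of 94600 ± 7178 (SD, n = 4) was 1.49 times the mNrf2-TG mean of 63580 ± 4866 (SD, n = 3). The log2 fold change was -0.57 (standard error 0.0796, edgeR adjusted p = 0.00165). Myl2 was called in all 13 alternative analyses, which used other tools, scales and filters or left out a library.

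Myl3, the ventricular essential light chain (chromosome 9, 110741861 to 110769798), had 47270, 47700, 43590 and 47010 normalized counts in NTG and 39260, 35990 and 42180 in mNrf2-TG. Every mNrf2-TG library was below every NTG library, by a smaller margin than for Myl2. Its log2 fold change was -0.25 (standard error 0.0693, edgeR adjusted p = 0.0371), and 7 of the 13 alternatives called it, with adjusted p-values from 0.0156 to 0.123.

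The light chain genes of the atrium were hardly counted. Myl4, the atrial essential light chain, had 20, 17, 26 and 21 counts in NTG and 22, 40 and 65 in mNrf2-TG, a log2 fold change of 0.94 (standard error 0.317, edgeR adjusted p = 0.069). The groups overlapped through mNrf2-TG 17, and Myl4 was called higher without that library (1.20) or without NTG 3 (1.07). Myl7, the atrial regulatory light chain, had 1, 0, 4 and 0 counts in NTG and 0, 0 and 1 in mNrf2-TG, too few to show a difference of moderate size.

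Myh6, the fast adult heavy chain of the mouse heart (chromosome 14, 54941921 to 54966927), had 156500, 166800, 243000 and 156500 normalized counts in NTG and 147700, 161300 and 138100 in mNrf2-TG. NTG 3 stood far above all other libraries, and the remaining 6 overlapped between the groups. The log2 fold change was -0.28 (standard error 0.147, edgeR adjusted p = 0.222), and -0.10 without NTG 3. Whether transgene transcripts carry any Myh6 exon is not given in the sources used here. Myh7, the slow heavy chain of the fetal and stressed mouse heart (chromosome 14, 54970684 to 54994626), had 13860, 14210, 29410 and 20160 normalized counts in NTG and 24020, 21580 and 17950 in mNrf2-TG. In edgeR's fit it differed by 0.13 on the log2 scale (adjusted p = 0.757) and 0.40 without NTG 3 (adjusted p = 0.0788), neither called. Myh7b, a related heavy chain expressed at a low level, had 346, 410.5, 813.8 and 304.7 normalized counts in NTG and 501.5, 490.8 and 386.8 in mNrf2-TG, with a log2 fold change of -0.03 that became 0.37 without NTG 3. Mybpc3, myosin-binding protein C, ranged from 29760 to 34500 in NTG and from 33560 to 40650 in mNrf2-TG, a log2 fold change of 0.21 (adjusted p = 0.103) that was called without NTG 3 (0.26, adjusted p = 0.0363).

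The Myh6 and Myh7 genes lie next to each other and share sequence, which bears on how reads of 50 bases are divided between them. Of the 6851 different 50-base stretches in annotated Myh6 transcripts, 1381 (20.16%) also occur in Myh7, where they make up 15.59%. None was shared in the 9 other isoform pairs given below. The first 60 coding bases of both genes, in the GENCODE M21 transcripts, are shown to illustrate the likeness, with capitals at the 14 bases that differ. They lie at chr14:54965401-54965460 (Myh6) and chr14:54992814-54992873 (Myh7), both on the minus strand, and are printed 5′ to 3′.
Myh6: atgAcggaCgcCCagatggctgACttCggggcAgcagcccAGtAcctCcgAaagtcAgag
Myh7: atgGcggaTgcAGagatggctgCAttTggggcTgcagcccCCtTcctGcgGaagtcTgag

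In the thin filament, 4 of 11 genes (36.4%) fell and 0 rose, where 8.73% of all genes fell and 8.48% rose. The median log2 fold change was -0.28 (-0.22 without NTG 3). The genes that fell, Tpm1, Tpm3, Tnnt1 and Tnni3, are tropomyosins and troponins, which make up most of these 11 genes. Tnnc1, Tnnt2, Tnni1 and Tpm2 of the same families were not called. Tnni3, cardiac troponin I (chromosome 7, 4518305 to 4524229), had 44150, 45300, 42780 and 44870 normalized counts in NTG and 29030, 30050 and 32860 in mNrf2-TG. The NTG mean was 44270 ± 1101 (SD, n = 4) and the mNrf2-TG mean 30650 ± 1984 (SD, n = 3), with a wide gap between the groups. In edgeR's fit Tnni3 was 1.445 times as high in NTG. Its log2 fold change of -0.53 (standard error 0.0627, edgeR adjusted p = 0.000717) was called in all 13 alternatives. On the same strand, 86 bases of its exons (4.2%) are also annotated to Dnaaf3.

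The other adult subunits of the complex moved less. Tnnt2, cardiac troponin T, had 81910, 92600, 81580 and 89540 normalized counts in NTG and 70830, 76710 and 79150 in mNrf2-TG. The groups did not overlap, but the log2 fold change of -0.19 was not called (adjusted p = 0.0839), and without NTG 3 it was (-0.22, adjusted p = 0.045). Tnnc1, which binds calcium, ranged from 17040 to 22010 in NTG and from 19030 to 19610 in mNrf2-TG, a log2 fold change of -0.02 (adjusted p = 0.928).

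The slow skeletal forms of troponin were rare. Tnnt1 (chromosome 7, 4504570 to 4516382) had 105, 193, 232 and 164 counts in NTG and 81, 77 and 78 in mNrf2-TG. After normalization the means were 174.3 ± 49.0 (SD, n = 4) and 77.95 ± 8.37 (SD, n = 3), and the lowest NTG library (120.7) lay above the highest mNrf2-TG library (87.17). A log2 fold change of -1.17 (standard error 0.211, edgeR adjusted p = 0.00609) was found, called in all 13 alternatives. Tnni1, slow troponin I, had 0, 1, 2 and 3 counts in NTG and 2, 4 and 3 in mNrf2-TG, a level at which no difference of moderate size could be detected.

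Tpm1, the main tropomyosin of the heart (chromosome 9, 67022590 to 67049406), had 108700, 118200, 131300 and 109800 normalized counts in NTG and 90770, 86050 and 95700 in mNrf2-TG. Groups were separate, with means of 117000 ± 10410 (SD, n = 4) and 90840 ± 4826 (SD, n = 3). The log2 fold change of -0.37 (standard error 0.078, edgeR adjusted p = 0.0119) was called in all 13 alternatives. Tpm3, a slow and cytoskeletal tropomyosin (chromosome 3, 90072649 to 90100902), had 431.1, 512.2, 552.8 and 403.3 normalized counts in NTG and 303.5, 379.4 and 332.3 in mNrf2-TG. The estimate was -0.49 on the log2 scale (adjusted p = 0.025), called in 10 of the 13 alternatives. Tpm2, with 124.2, 156.6, 180.5 and 177.3 normalized counts in NTG and 105.5, 143.9 and 133.5 in mNrf2-TG, was not called (-0.32, adjusted p = 0.182).

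Actin and the proteins at its pointed end were not called. Actc1 had 105200, 92810, 62670 and 128100 normalized counts in NTG and 124700, 92310 and 93480 in mNrf2-TG, with NTG 3 the lowest of all 7 libraries. A log2 fold change of 0.09 was estimated (standard error 0.203), and -0.07 without NTG 3. Tmod1, tropomodulin, ranged from 2180 to 2397 in NTG and from 1961 to 2343 in mNrf2-TG. Of its exon bases, 32.6% are also annotated to Tstd2 on the opposite strand, and the use of strand in the counting is not given. Lmod2, leiomodin, which lengthens thin filaments, had a log2 fold change of -0.28 (adjusted p = 0.536) and stood at 18310 in NTG 3 against 7363 to 9020 in the other NTG libraries.

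**Figure D3:**
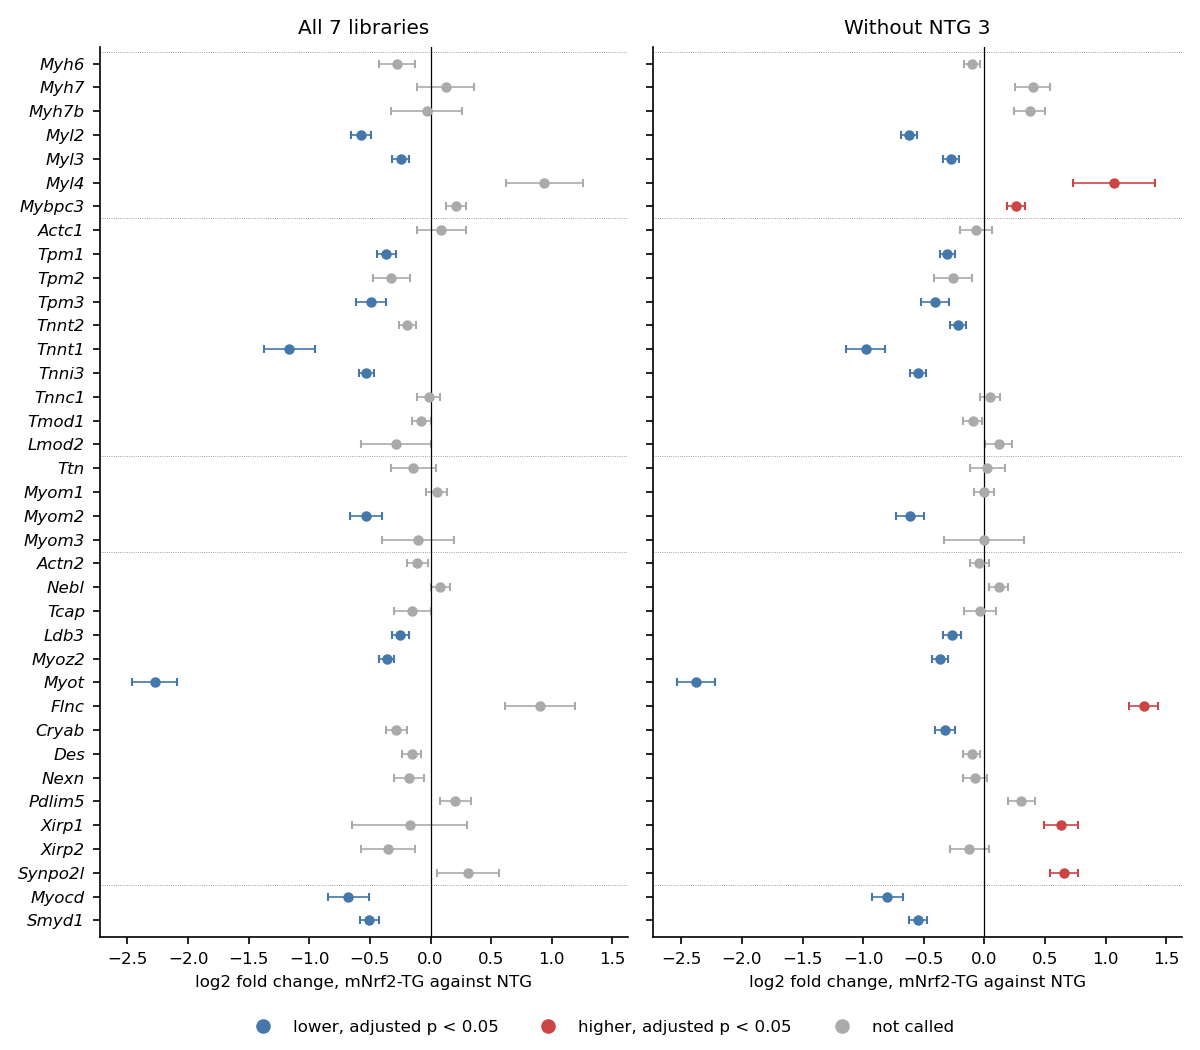
Log2 fold change of mNrf2-TG against NTG (x axis; points, edgeR estimates; bars, 1 standard error) for 37 genes, over all 7 libraries (left) and without NTG 3 (right), colored by the call at an adjusted p under 0.05. Over all libraries 12 genes are called lower and 0 higher, and without NTG 3 the counts are 14 and 5; dotted lines separate thick filament, thin filament, titin and M-band, Z-disc and regulators.

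Of titin and the 3 myomesins, Myom2 alone was called, with a median log2 fold change of -0.12 over the 4 genes (-0.0023 without NTG 3). Myom2 (M-protein; chromosome 8, 15057653 to 15133541) had 12980, 15800, 10850 and 12490 normalized counts in NTG and 7657, 8976 and 10360 in mNrf2-TG. The lowest NTG library, NTG 3, was close to the highest mNrf2-TG library, without overlap. In the test, the log2 fold change was -0.53 (standard error 0.133, edgeR adjusted p = 0.0223), called in 9 of the 13 alternatives, in which the adjusted p went up to 0.0897. Ttn, the gene of titin, ranged from 38080 to 69080 in NTG and from 39960 to 54310 in mNrf2-TG, a log2 fold change of -0.14 (adjusted p = 0.646). Myom1, the main myomesin of the heart, ranged from 12420 to 15030 and from 13000 to 16010, a log2 fold change of 0.05 (adjusted p = 0.741). Myom3 had 16, 13, 20 and 18 counts in NTG and 17, 18 and 13 in mNrf2-TG.

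Among 14 Z-disc genes 3 (21.4%) fell and 0 rose, where 8.73% of all genes fell and 8.48% rose. The median log2 fold change was -0.16 (-0.060 without NTG 3 and -0.086 without mNrf2-TG 19). The largest difference of the whole list was that of Myot, the gene of myotilin, which cross-links actin at the Z-disc (chromosome 18, 44334074 to 44355724). Its counts were 637, 651, 462 and 661 in NTG and 152, 115 and 115 in mNrf2-TG. The normalized means were 613.3 ± 109 (SD, n = 4) and 127.1 ± 31.9 (SD, n = 3), a 4.84-fold difference in edgeR's fit. The lowest NTG library had 476.5 against 163.6 in the highest mNrf2-TG library. The log2 fold change was -2.28 (standard error 0.186, edgeR adjusted p = 6.75e-05), and it ranged from -2.49 to -2.15 over the alternatives, all of which called it.

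Myoz2, calsarcin-1, which tethers calcineurin to the Z-disc (chromosome 3, 123006206 to 123035015), had 9354, 9688, 9423 and 9461 normalized counts in NTG and 7299, 6990 and 7828 in mNrf2-TG. The groups were far apart beside the spread within each, and the log2 fold change of -0.36 (standard error 0.0617, edgeR adjusted p = 0.00469) was called in all 13 alternatives. Ldb3, known as ZASP or Cypher (chromosome 14, 34526603 to 34588682), had 12480, 11490, 11870 and 13250 normalized counts in NTG and 9791, 11000 and 10150 in mNrf2-TG. Its log2 fold change of -0.25 (adjusted p = 0.0389) was called in 7 of the 13 alternatives, with adjusted p-values from 0.0148 to 0.136.

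A further group of 3 Z-disc genes, named after their values were seen, had higher counts in mNrf2-TG than in NTG 1, 2 and 4 and were called when NTG 3 was left out. Flnc, filamin C, an actin cross-linker (chromosome 6, 29433256 to 29461883), had 3099, 2849, 6952 and 3022 normalized counts in NTG and 8310, 8098 and 5877 in mNrf2-TG. NTG 3 lay within the mNrf2-TG range, and the log2 fold change of 0.90 was not called (adjusted p = 0.0591), while without NTG 3 it was 1.31 (adjusted p = 8.11e-05). Xirp1, whose Xin repeats bind actin, had 2757, 2839, 10770 and 2531 in NTG and 4848, 4626 and 3114 in mNrf2-TG. The value of -0.17 became 0.63 (adjusted p = 0.0112) without NTG 3. Synpo2l, an actin-associated protein of the Z-disc, had 1163, 1134, 2434 and 1198 in NTG and 1959, 2066 and 1489 in mNrf2-TG, and its log2 fold change went from 0.31 to 0.66 (adjusted p = 0.00307). In all 3 genes, each mNrf2-TG library was above NTG 1, 2 and 4.

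The remaining 8 Z-disc members were not called over all libraries. Cryab, a small heat shock protein that protects desmin and titin, ranged from 14650 to 18510 normalized counts in NTG and from 12860 to 14090 in mNrf2-TG, without overlap (log2 fold change -0.28, adjusted p = 0.054). Cryab was called lower in 3 alternatives, DESeq2's Wald test, limma-voom and the fit without NTG 3. Of its exon bases, 17% are also annotated to Hspb2 on the opposite strand. Actn2, the α-actinin that anchors thin filaments, had a log2 fold change of -0.11, and Des, desmin, of -0.16. Tcap, which caps titin at the Z-disc, was at -0.15, Nexn, an actin-binding protein, at -0.18 and Xirp2 at -0.35. Nebl, nebulette, was at 0.08 and Pdlim5 at 0.20. None of the 7 genes from Actn2 to Pdlim5 was called in any alternative, and their adjusted p-values over all libraries were 0.199 or above.

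Both regulators fell. Myocd (chromosome 11, 65176561 to 65269989) had 931.1, 868.6, 591 and 863.4 normalized counts in NTG and 404.6, 501.6 and 617.4 in mNrf2-TG. Groups overlapped through NTG 3, which lay below mNrf2-TG 19. The log2 fold change was -0.68 (standard error 0.172, edgeR adjusted p = 0.0246), called in 8 of the 13 alternatives, and -0.80 without NTG 3. Smyd1 (chromosome 6, 71213940 to 71322233) had 5970, 5819, 5214 and 5806 normalized counts in NTG and 3658, 4109 and 4289 in mNrf2-TG, without overlap. Its log2 fold change of -0.50 (standard error 0.0778, edgeR adjusted p = 0.00298) was called in all 13 alternatives. Among 10 genes of transcription factors and cofactors that act with myocardin or Smyd1, 1 fell and 0 rose, a share near the 8.73% lower over all genes, with a median log2 fold change of -0.12. The gene that fell was Mef2a, a muscle transcription factor, with 1215, 1139, 1214 and 1032 normalized counts in NTG and 708.1, 847.5 and 934.2 in mNrf2-TG (log2 fold change -0.47, adjusted p = 0.0133).

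Serum response factor, with myocardin as coactivator, binds a site called the CArG box, and MEF2 proteins bind an A/T-rich site of their own. In windows from 250 bases before to 50 after annotated starts (RefSeq, GRCm38.p6), searched on both strands, 1.63% of 32851 windows held a CArG box, 3.19% a MEF2 site and 12.39% the core of the antioxidant response element that Nrf2 binds (TGACNNNGC). No match in a member overlapped one of another motif. A window was at hand for 32 members, some of which had more than 1. Members are named below if any of their windows held the motif, a different unit from the shares per window. A CArG box was present for Actc1, Ldb3, Myl3, Myl7, Myom1 and Nebl, a MEF2 site for Mybpc3, Myom3, Myoz2, Synpo2l, Ttn and Xirp2, and an antioxidant response element core for Actn2, Des, Myh7b and Myl7. Of the called members, Myl3, Ldb3 and Myoz2 were among these, and Myl2, Tpm1, Tpm3, Tnnt1, Tnni3 and Smyd1 had a window with none of the 3 motifs. Windows lie at RefSeq starts, which can differ from the gene positions given above. The upstream parts of the Myl2 windows end at chr5:122092723 and chr5:122093188, before its gene at 122100951, so that start was not searched. Promoter stretches of 3 genes with a CArG box are printed because 2 belong to genes that fell and 1, of Actc1, to a gene that was not called. Each lies before a RefSeq start and stops where an exon annotated in GENCODE M21 begins, runs 5′ to 3′ on the gene's strand and has the CArG box in capitals. GENCODE M21 also has transcripts of Myl3 and Actc1 that start further upstream, so those 2 stretches lie within the annotated genes, and that of Ldb3 lies before its gene. Positions are chr2:114052888-114053125 on the minus strand (Actc1), chr9:110763428-110763645 on the plus strand (Myl3) and chr14:34588683-34588931 on the minus strand (Ldb3).
Actc1: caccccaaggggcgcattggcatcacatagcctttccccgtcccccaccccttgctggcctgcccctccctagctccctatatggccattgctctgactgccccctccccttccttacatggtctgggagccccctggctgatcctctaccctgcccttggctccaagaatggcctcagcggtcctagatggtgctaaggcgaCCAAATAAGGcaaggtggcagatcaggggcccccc
Myl3: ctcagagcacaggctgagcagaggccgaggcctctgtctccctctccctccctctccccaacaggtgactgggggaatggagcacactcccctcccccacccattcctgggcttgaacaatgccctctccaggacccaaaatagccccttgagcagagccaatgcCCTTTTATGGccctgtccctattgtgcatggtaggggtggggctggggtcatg
Ldb3: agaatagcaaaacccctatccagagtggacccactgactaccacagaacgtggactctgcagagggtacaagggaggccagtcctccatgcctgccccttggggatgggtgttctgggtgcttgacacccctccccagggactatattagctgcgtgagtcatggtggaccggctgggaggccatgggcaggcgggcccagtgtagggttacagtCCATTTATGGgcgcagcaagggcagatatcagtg

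A shift from adult to fetal, slow or atrial forms would appear in ratios of related genes, which do not depend on the scale of a library. For 10 pairs the log2 ratio of counts, with 0.5 added to both, was compared by an exact two-sided permutation test over all 35 assignments of the 7 libraries to the groups, in which no p can be lower than 0.0286. No pair reached 0.05 before adjustment (lowest exact p = 0.0571), and the lowest value adjusted over the 10 pairs by the Benjamini-Hochberg method was 0.285. Groups did not overlap in 3 pairs.

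Myh7 made up 8.14%, 7.85%, 10.8% and 11.4% of the sum of Myh6 and Myh7 counts in NTG 1 to 4, and 14.0%, 11.8% and 11.5% in mNrf2-TG 17 to 19. All mNrf2-TG values were above all NTG values, the nearest being NTG 4 and mNrf2-TG 19, and the log2 ratio was higher by 0.44 (exact permutation p = 0.114). Myh7b relative to Myh6 was higher by 0.33 with overlap (exact permutation p = 0.171). Tnnt1 made up 0.147%, 0.187%, 0.292% and 0.182% of the sum of Tnnt1 and Tnnt2 in NTG and 0.123%, 0.0988% and 0.0894% in mNrf2-TG, so that the slow form was the lower here. The log2 ratio differed by -0.93 without overlap (exact permutation p = 0.0571). For the atrial light chain, Myl4 relative to Myl3 differed by 1.09, with overlap, from -11.07 ± 0.383 (SD, n = 4) to -9.98 ± 0.614 (SD, n = 3) (exact permutation p = 0.0571).

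The other pairs differed less or rested on few counts. Tnni1 relative to Tnni3 differed by 1.58 without overlap (exact permutation p = 0.0857), with at most 4 counts of Tnni1 in a library, and Myl7 relative to Myl2 by -0.13, with at most 4 counts of Myl7. Tpm2 and Tpm3 relative to Tpm1 differed by 0.04 and -0.12, and Myom3 relative to Myom2 by 0.43. Acta1, the skeletal actin gene, made up 1.68%, 1.66%, 12.8% and 1.62% of the sum with Actc1 in NTG and 1.74%, 2.75% and 2.55% in mNrf2-TG. The share in NTG 3 was the highest of all 7 libraries, and mNrf2-TG libraries were above the other 3 NTG libraries (log2 ratio difference -0.29, exact permutation p = 1.0).

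**Figure D4:**
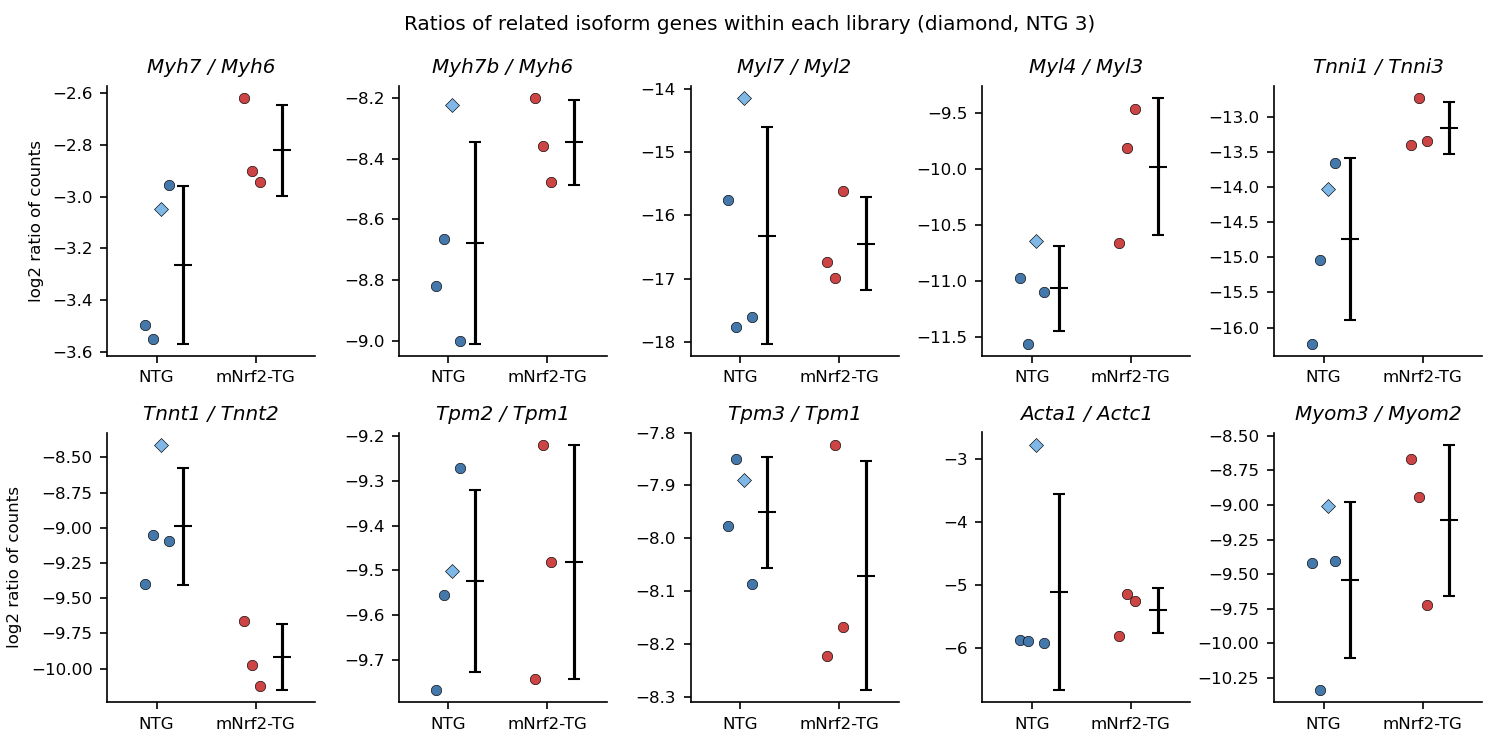
Log2 ratio of counts of 10 pairs of related genes within each library (y axis; each panel has its own range), for NTG (blue; diamond, NTG 3) and mNrf2-TG (red), with group means and SD as bars. Groups do not overlap for Myh7 to Myh6, Tnni1 to Tnni3 and Tnnt1 to Tnnt2, and for Acta1 to Actc1 NTG 3 lies far from the other 6 libraries.

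Further genes of the same structures were taken from lists fixed with earlier results of these data known. Of 27 other filament and M-band genes, 3 (11.1%) rose and 3 (11.1%) fell, near the 8.48% and 8.73% over all genes, with a median log2 fold change of -0.17 (-0.056 without NTG 3 and -0.093 without mNrf2-TG 19). Those that rose were Cfl2, a muscle cofilin that severs actin (0.79, adjusted p = 0.000122), Trim54, a ubiquitin ligase of the M-band and Z-disc (0.66, adjusted p = 0.000382), and Lmod3, a leiomodin (0.34, adjusted p = 0.0128). Trim54 had 1860, 1944, 1799 and 1682 normalized counts in NTG and 2998, 2887 and 2775 in mNrf2-TG, and Lmod3 1300, 1302, 1264 and 1301 against 1791, 1502 and 1604. Cfl2 had 3688, 3615, 3759 and 3786 normalized counts in NTG and 6986, 6298 and 5931 in mNrf2-TG, and none of the 3 genes overlapped between the groups. Those that fell were Fhod3, a formin that assembles cardiac thin filaments (-0.52, adjusted p = 0.00875), Mylk3, the kinase of the ventricular light chain (-0.43, adjusted p = 0.0223), and Tpm4, a cytoskeletal tropomyosin (-0.58, adjusted p = 0.0341). Fhod3 had 3659, 4171, 3068 and 3435 normalized counts in NTG and 2641, 2300 and 2555 in mNrf2-TG, without overlap, and Tpm4 had 1623, 1784, 1439 and 1196 against 1042, 783.4 and 1201, with overlap. Mylk3 had 6521, 7203, 5337 and 5597 normalized counts in NTG and 4261, 4677 and 4826 in mNrf2-TG, the same direction as its substrate gene Myl2. Acta1 had 1798, 1568, 9172 and 2108 normalized counts in NTG and 2208, 2608 and 2446 in mNrf2-TG. It was not called (-0.60, adjusted p = 0.498) and was called higher without NTG 3 (0.41, adjusted p = 0.0247).

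Of 29 other Z-disc and chaperone genes, 6 (20.7%) rose and 5 (17.2%) fell, against 8.48% and 8.73% over all genes, with a median log2 fold change of -0.07 (-0.0020 without NTG 3). The increases with the smallest adjusted p were those of Pdlim7, a PDZ and LIM protein of the Z-disc (0.67, adjusted p = 0.00562), Ankrd1, a titin-binding repeat protein known to respond to stretch (1.51, adjusted p = 0.0112), and Fhl2, a LIM protein (0.45, adjusted p = 0.0232). Ankrd1 had 10830, 11410, 30890 and 14800 normalized counts in NTG and 51610, 52400 and 40850 in mNrf2-TG. NTG 3 was again the highest NTG library and still below every mNrf2-TG library. Pdlim7 had 328.8, 323.2, 447.6 and 316.7 normalized counts in NTG and 566.1, 574.5 and 551.1 in mNrf2-TG, and Fhl2 11970, 11010, 14360 and 15890 against 17890, 18550 and 18180, both without overlap. The decreases with the smallest adjusted p were those of Cmya5, myospryn (-0.50, adjusted p = 0.00559), Bag3, a cochaperone that clears damaged filamin (-0.67, adjusted p = 0.0194), and Hspb6, a small heat shock protein (-0.32, adjusted p = 0.0293). Bag3 had 4771, 4155, 2961 and 3476 normalized counts in NTG and 2662, 2592 and 1973 in mNrf2-TG. Cmya5 had 9909, 9985, 10810 and 8444 in NTG and 6700, 7425 and 6649 in mNrf2-TG, and Hspb6 10870, 9798, 12190 and 12270 against 8871, 9261 and 9015. These 3 decreases also left no overlap between the groups.

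In whole heart RNA, fewer cells of a type and less RNA per cell cannot be told apart, and markers of other cells moved between the groups. Of 12 other cardiomyocyte genes, all counted in every library, 2 (16.7%) rose and 4 (33.3%) fell. Of the members 0 rose and 30.8% fell, and over all genes 8.48% rose and 8.73% fell. Without overlap, mNrf2-TG lay below NTG for 7 of the 12 genes and above for 2. Their summed level, in normalized counts, was between 468200 and 479000 in NTG and between 414800 and 427300 in mNrf2-TG. The summed level of the 39 members went from 900700 to 1036000 in NTG and from 802400 to 839600 in mNrf2-TG. Of 7 fibroblast genes 5 rose and 0 fell, with summed levels of 8440 to 10920 and 12250 to 13150, and of 5 macrophage genes 3 rose and 0 fell, with 792.1 to 998.4 and 1346 to 1900. Of 6 endothelial genes 1 (16.7%) rose and 2 (33.3%) fell, with 6239 to 6840 and 5871 to 6133. The part of these shifts in the decreases of the members was not tested.

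Markers of other muscles were also counted. Of 8 smooth muscle genes 1 (12.5%) rose and 0 fell, where 8.48% of all genes rose and 8.73% fell. Their summed levels were 3173 to 10960 in NTG, the highest in NTG 3, and 8274 to 12200 in mNrf2-TG. Acta2 was the largest part of the sum in NTG 3 (7949) and in every mNrf2-TG library (5471 to 9355). The gene that rose was Myl9, and Myh11, Tagln, Cnn1, Smtn, Mylk and Lmod1 overlapped between the groups. Of 4 atrial genes analysed, 1 (25.0%), Nppa, rose and 0 fell. Their summed levels were 1013 to 1728 and 2380 to 4251, beside which the atrial light chain results above stand. All 4 were higher in every mNrf2-TG library than in any NTG library, where 15.0% of all genes were, and without NTG 3 edgeR called 2 of them higher. Beside Nppa they were Mybphl, with at most 4 counts in a library, Dkk3 (1.77-fold) and Kcnj3 (1.13-fold). Sln and Bmp10, also on the atrial list, are not analysed here. Of the atrial light chain genes among the members, Myl4 was not called over all libraries, and Myl7 had at most 4 counts in a library. Nppa is also a fetal cardiac gene, which the paper follows as a marker of hypertrophy. Of 10 fast skeletal muscle genes 0 rose and 2 fell, Myh1 and Myh4, with summed levels of 659.8 to 1258 and 442.1 to 682.9. Myot and Tnnt1 are also expressed in skeletal muscle. Of these 10 genes 6 were below 0 and 4 above on the log2 scale, Mylpf was higher in every mNrf2-TG library at 1 to 8 counts per library, and without NTG 3 edgeR called 1 higher and 3 lower. Myh1 shares 10 and Myh4 7 stretches of 50 bases with Myh6. Pvalb, Tnnc2 and Tnnt3 were at 0 in at least 1 library of each group, and the others of the 10 were counted in every library. Of those, Myh1 had 233 to 646 counts, Myh4 157 to 474 and Tnni2 1 to 19. Whether the share of atrial tissue or of any other muscle in the lysate had a part in the results was not tested.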

How the data were processed

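Per the labels and the methods, poly(A) RNA went into stranded libraries that were read from 1 end over 50 bases. Alignment by the authors used Novoalign 2.08.01 (hg19 is named for the index, mm10 or GRCm38 for the mapped transcriptome), and they deposited counts per gene without normalization. The counting program and its use of strand are not given in the sources used here. A deposited signal column, the authors' mean of DESeq2-normalized counts over the 7 libraries, was recomputed from the counts to within a relative difference of 0.00308 and not used further. The regularized log values were not used, nor were the columns with the authors' fold changes and p-values. Of 14665 entries, 24 repeats of an Entrez gene were removed.

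Groups came from the genotype labels. Counts were tested with edgeR 4.0.16 (TMM, quasi-likelihood test, no covariates, summed count above 1) under R 4.3.3, and ratios with scipy 1.17.1. The standard error is the absolute log2 fold change divided by the square root of F. The procedure was tested on simulated data. Positions and exon lengths are from GENCODE M21, and promoters from RefSeq. The members and lists were chosen with earlier results of these data known. Values in every library are given for members called and for isoform pairs. Of further sarcomere genes, the 3 with the smallest adjusted p per list and direction, and Acta1, are named. Other genes named with library values, such as Flnc, Xirp1 and Synpo2l, and the genes called in the marker lists, were chosen after their values were seen. Of the list symbols, 3 were matched through an older symbol and 2 are not analysed here. Alternatives were DESeq2 1.42.0, limma-voom (limma 3.58.1), DESeq2 size factors, the library total alone, filterByExpr, no filter and leaving out each library. The full list of calls without NTG 3, and a two-sided exact p made by doubling the smaller tail, were added after seeing the data. The form of the exact p in the report, the absolute difference of group means, was settled after the doubled form had been seen.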

Additional observations from a re-analysis of the deposited data

Results flagged for a closer look

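Within NTG, 10 of 50 series of values (the 39 members, Acta1 and the 10 isoform ratios) had a library far from the others by Dixon's ratio of the gap to the range, above its critical value for 4 samples. Chance marks about 1 in 20 such groups. The series are related, with Acta1 entering both alone and in a ratio, and the rule was not applied to all genes. In each of the 10, the library was NTG 3. It was the highest NTG library for Myh6 (ratio 0.881), Lmod2 (0.849), Actn2 (0.899), Flnc (0.939), Xirp1 (0.963), Xirp2 (0.888), Synpo2l (0.951), Acta1 (0.929) and the log2 ratio of Acta1 to Actc1 (0.983), and the lowest for Myl3 (0.832).

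NTG 3 also had the highest summed level of the smooth muscle genes in its group, most of it Acta2 (7949 of 10960 normalized counts). Acta2, Myl9, Myh11, Smtn and Mylk were highest in NTG 3 among the NTG libraries, and Tagln, Cnn1 and Lmod1 were not. Acta1 in NTG 3 stood at 5.03 times the mean of the other NTG libraries. The part of the smooth muscle genes or of Acta1 in the values of NTG 3 was not tested.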

How the results depend on the processing

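No paired analysis was possible because the groups share no replicate number. Of the 12 members called lower, 7 (Myl2, Tpm1, Tnnt1, Tnni3, Myoz2, Myot and Smyd1) were called in all 13 alternatives. Members called higher numbered 1 with limma-voom and 1 with the library total alone, and 0 to 5 when each library was left out, 5 without NTG 3 and 1 without mNrf2-TG 17. Members called lower numbered 7 to 14, with 7 without NTG 2, 7 without mNrf2-TG 17 and 14 without NTG 3. The calls over all genes moved too. Genes called lower numbered 792 of 14625 without NTG 2, 669 of 14625 without mNrf2-TG 17 and 1478 of 14623 without NTG 3. Genes called higher numbered 1471 without NTG 3, 703 without mNrf2-TG 17, 1291 with limma-voom and 1383 with the library total alone. Leaving out each library, the median log2 fold change ranged from -0.21 to 0.12 in the thick filament, -0.22 to 0.026 in titin and the M-band (-0.0023 without NTG 3), -0.22 to -0.060 in the Z-disc, -0.21 to -0.056 in the other filament genes, -0.10 to -0.0020 in the other Z-disc and chaperone genes and -0.16 to -0.043 in the partners of Myocd and Smyd1. The Tpm3 to Tpm1 difference ranged from -0.24 to -0.045. Members not called over all libraries whose log2 fold change changed sign were Myh7b (0.071 with limma-voom, 0.0064 with the library total alone, -0.18 to 0.37 leaving out each library), Tnnc1 (0.015 with the library total alone, -0.068 to 0.048), Xirp1 (0.11 with limma-voom, -0.37 to 0.63, called without NTG 3), Actc1 (-0.071 to 0.25), Lmod2 (-0.42 to 0.12), Ttn (-0.26 to 0.024), Myom1 (-0.026 to 0.13) and Myom3 (-0.25 to 0.083). Of the isoform ratios, Myl7 to Myl2 changed sign with 1 added to both counts (0.036). The Acta1 to Actc1 difference, negative over all libraries, was positive without NTG 3. Other sign changes of the ratios on leaving out a library are not listed here. Doubling the smaller tail put no isoform pair under 0.05. The causes were not tested. Genes with a few counts per library, such as Myl7 and Tnni1, carry no information on moderate changes.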

Other observations

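Myh2, a fast skeletal heavy chain outside the members, had 3, 2, 68 and 46 counts in NTG 1 to 4 and 86, 81 and 69 in mNrf2-TG 17 to 19. NTG 3 and NTG 4 were near the mNrf2-TG libraries and NTG 1 and NTG 2 far below, and edgeR's test did not call it (log2 fold change 1.37, adjusted p = 0.213). Acta2, the smooth muscle actin, had 1027, 1092, 7949 and 1886 normalized counts in NTG and 9355, 8268 and 5471 in mNrf2-TG. Over all libraries it was not called (log2 fold change 1.37, edgeR adjusted p = 0.163), with NTG 3 inside the mNrf2-TG range, and without NTG 3 its log2 fold change was 2.53 (adjusted p = 0.000132). Both genes were chosen after their values were seen.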
